A study of Mus musculus with 4 samples.

Results

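The 44 genes described here serve protein folding in the endoplasmic reticulum (ER) and the unfolded protein response. They were taken by symbol from the 28694 genes of the mouse count tables, as a list fixed by function and not by their values, and all 44 were found. They fall into 4 arms: 12 chaperones and co-chaperones, 13 isomerases and oxidases of disulfide or proline bonds, 8 genes of ER-associated degradation, and 11 stress sensors and factors. The study profiled single cells of the distal colon (DC) and of small intestinal section 8 (Si8), with 2 droplet libraries from each region, to compare their goblet cells. All mice were RedMUC298trTg animals aged 6 to 8 weeks, whose goblet cells are marked by mCherry, so both regions carry the transgene and no library without it was analysed. Cells were freed with EDTA and DTT and then collagenase, and live cells were sorted by whether they gave mCherry signal, with a C57Bl6 mouse setting the negative gate. Neither the number of mice per library nor whether mCherry-negative cells were loaded is given in the sources used here. Nothing says that the libraries of a region came from separate animals, so p-values measure only the spread between these samples.

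The ER folds proteins bound for secretion, and goblet cells pass large, disulfide-linked mucins through it. When unfolded protein builds up, the membrane sensors IRE1, PERK and ATF6 raise chaperones, oxidases and degradation genes through the factors XBP1, ATF4 and ATF6. Intestinal goblet cells also carry another IRE1 protein, IRE1β, the product of Ern2, next to the widely expressed IRE1α of Ern1. ATF4 in turn drives genes of amino acid supply and, under lasting stress, Ddit3, Trib3 and Chac1.

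Promoters of chaperone genes are known for the ER stress element, CCAAT followed after 9 bases by CCACG, which ATF6 and XBP1 are known to bind together with NF-Y. It was searched on both strands in the 250 bases before each RefSeq start site (GRCm38.p6), where 39 of the 44 members had an entry. It was in 10 of the 39 (25.6%), against 35 of 27025 genes (0.130%). These 10 were Hspa5, Hsp90b1, Calr, Canx, Dnajc3, Creld2, Pdia6, Ero1lb, Syvn1 and Derl3, with 2 copies in Hsp90b1, of which the farther from the start is shown. Windows of 7 of them are shown because their genes gave the clearest contrasts described next, from steep regional differences (Creld2, Pdia6, Calr, Dnajc3) to none called in goblet-like cells (Hsp90b1, Canx), with Hspa5 as the most abundant. Each is read on the strand of its gene, with the element in capitals. In Calr and Creld2 it lies on the opposite strand and reads CGTGG, 9 bases, ATTGG.

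Hspa5 (chr2:34772020-34772048, + strand): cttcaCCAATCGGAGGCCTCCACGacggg
Hsp90b1 (chr10:86705618-86705676, - strand): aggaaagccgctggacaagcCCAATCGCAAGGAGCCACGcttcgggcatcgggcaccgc
Calr (chr8:84847055-84847113, - strand): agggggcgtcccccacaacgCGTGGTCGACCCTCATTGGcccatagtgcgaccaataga
Canx (chr11:50325780-50325838, - strand): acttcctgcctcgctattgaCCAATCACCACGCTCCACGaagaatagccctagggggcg
Dnajc3 (chr14:118937807-118937865, + strand): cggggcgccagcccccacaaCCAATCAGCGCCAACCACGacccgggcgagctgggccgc
Creld2 (chr15:88819500-88819558, + strand): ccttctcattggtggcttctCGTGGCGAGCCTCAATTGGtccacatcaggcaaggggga
Pdia6 (chr12:17266471-17266529, + strand): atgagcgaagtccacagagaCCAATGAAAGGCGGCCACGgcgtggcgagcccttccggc

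The Hspa5 window is short because it lies over an exon of the GENCODE annotation. Herpud1 alone of the members held the second form of the element, ATTGG followed after 1 base by CCACG, which is in 10 of all genes (0.0370%). The amino acid response element, TGATG followed after 1 base by AA, to which ATF4 and its partners bind, was in Txndc5, Herpud1, Chac1 and Asns, and in 1056 of all genes (3.91%). The UPR element, TGACG directly followed by TGG, was in Txndc5 and Txndc11 and in 163 of all genes (0.603%). Herpud1 and Chac1 are shown because both differed by region, in opposite directions. In Chac1 the element is on the opposite strand and reads TT, 1 base, CATCA. These matches describe the letters of the windows and are not evidence of binding in these cells.

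Herpud1 (chr8:94386357-94386407, + strand): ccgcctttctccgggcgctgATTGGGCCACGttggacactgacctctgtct
Chac1 (chr2:119351029-119351076, + strand): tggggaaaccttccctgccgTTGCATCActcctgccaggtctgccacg

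Libraries held 27136824 and 66880457 UMIs in DC and 26075303 and 53675821 in Si8. After filters and doublet removal 10243 cells remained of 10827 barcodes. Clusters were named from markers that leave out the members. The goblet-like cells numbered 935 and 2101 in DC and 904 and 968 in Si8, and 22 or 23 of 23 goblet markers had UMIs in every library. Barcodes shared with another library numbered 9 to 32. Goblet-like cells of the regions differed in more than region. Their median depth was 11892 and 10373 UMIs in DC and 16013 and 18625.5 in Si8. Immediate early genes, which rise during cell dissociation, took 1.82% and 1.31% of UMIs in DC and 0.753% and 0.687% in Si8. Paneth cell markers took 0.0111% and 0.00438% in DC, with 6 and 7 of 14 markers seen, and 1.10% and 1.04% in Si8, with all 14 seen. Alternative fits thinned every cell to 2000 UMIs or left out the 25% of goblet-like cells highest in immediate early genes. Beyond these, the part of these differences in the results was not tested.

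Levels are given as CPM, that is UMIs scaled to the class's own total in a library. The 3' tags count molecules and are not divided by gene length. All 44 members had UMIs in goblet-like cells of every library. Together they took 1.12% and 1.16% of UMIs in DC and 1.38% and 1.31% in Si8. Hspa5, which encodes the Hsp70 chaperone BiP of the ER lumen (ENSMUSG00000026864, chr2:34771970-34777547, + strand, GRCm38), had the highest level in each library. The 4 most abundant members made up 35.4% to 38.3% of the members' UMIs, namely Hspa5 and Calr with Hsp90b1 and Herpud1 in DC, and with Txndc5 and either P4hb or Ppib in Si8.

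In goblet-like cells the folding and degradation arms were lower in DC than in Si8 for most members, while most sensors and factors gave no call. In CPM, Xbp1, Ern1, Ern2, Atf4, Atf6 and Ddit3 were higher in both DC libraries than in both Si8 libraries. Trib3, Chac1 and Asns were lower in both, and Sesn2 and Eif2ak3 overlapped. By edgeR's quasi-likelihood test with Benjamini-Hochberg adjustment over all genes, 31 of 44 members were lower and 2 higher in DC, where 22.0% of all tested genes were lower and 21.3% higher. The members' median log2 fold change was -0.89, against 0.05 for all genes. The 23 goblet markers took 8.41% and 7.60% of UMIs in DC and 28.8% and 28.6% in Si8. Scaling by TMM (trimmed mean of M-values) set factors of 1.22 in both DC libraries and 0.823 and 0.816 in Si8. With library totals alone the median of all genes moved to 0.62, 21 members were lower and 5 higher, where 9.90% of all genes were lower and 57.3% higher, and 12 members changed sign. All 21 were among the 31, and 20 of the 33 called members kept call and direction under every alternative tried. Log2 fold changes below are DC minus Si8 with TMM scaling, ± SE.

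**Figure D1:**
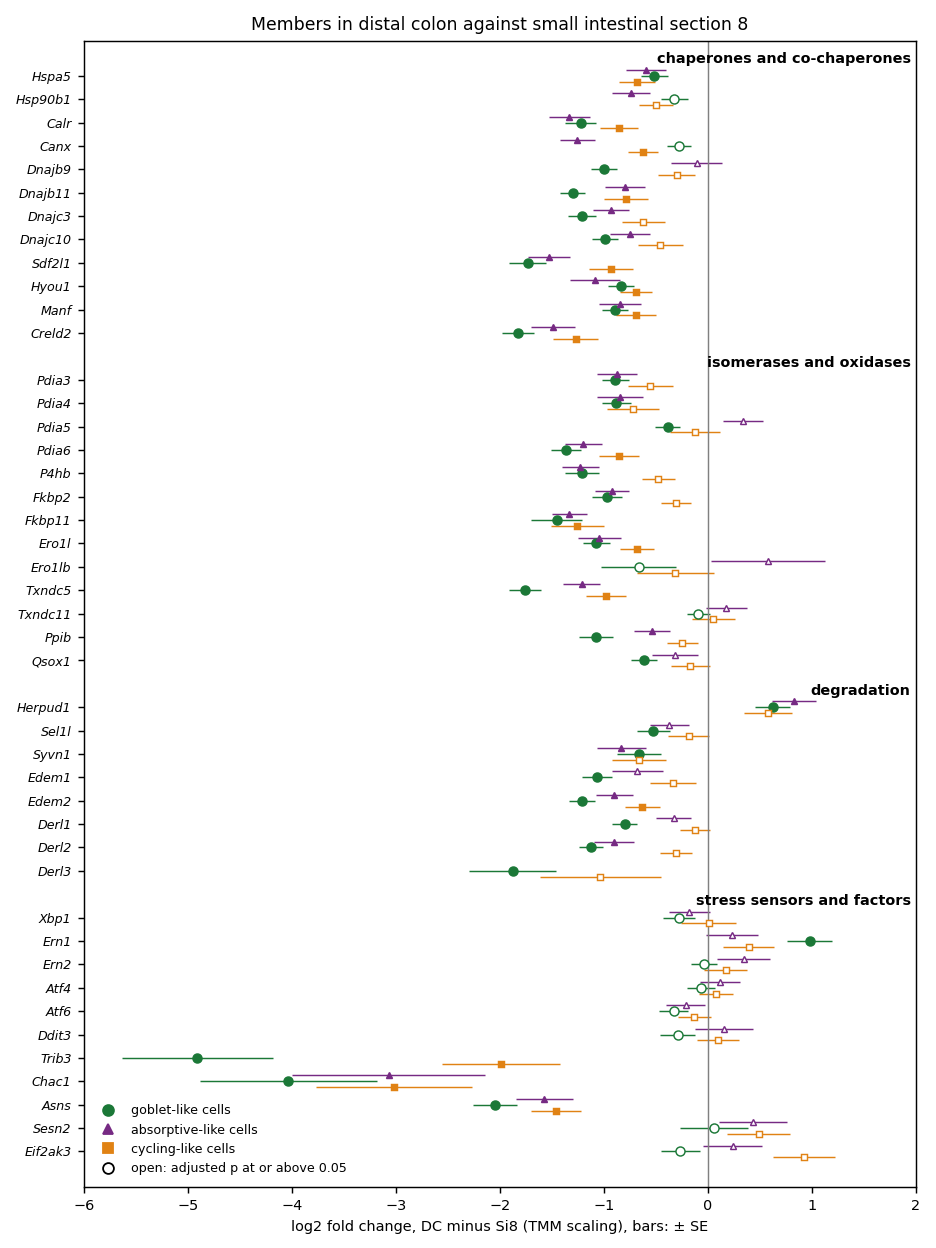
Log2 fold change (x axis, DC minus Si8, TMM scaling, bars ± SE) of each tested member in goblet-like (circles), absorptive-like (triangles) and cycling-like cells (squares), by arm; filled symbols had an adjusted p under 0.05. Most chaperones and isomerases sit left of 0 in all 3 classes, whereas Herpud1 and Ern1 sit right of 0 in goblet-like cells at 0.62 and 0.98.

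Of the 12 chaperones and co-chaperones, 10 were lower in DC goblet-like cells and none was higher, with a median of -1.0. Creld2, a stress-induced protein that acts on disulfide bonds (ENSMUSG00000023272, chr15:88819646-88826683, + strand), was at 56.1 and 66.2 CPM in DC and 159.5 and 133 in Si8. Sdf2l1, which works with BiP and its J-domain partners (ENSMUSG00000022769, chr16:17130138-17132383, - strand), was at 95.8 and 131 CPM in DC and 269 and 238 in Si8. Every Si8 library lay above both DC libraries for both genes. The log2 fold changes were -1.83 ± 0.15 for Creld2 (edgeR adjusted p = 0.000168) and -1.73 ± 0.18 for Sdf2l1 (edgeR adjusted p = 0.000401), or 3.55-fold and 3.32-fold lower.

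The J-domain proteins pass clients to BiP or help clear them. Dnajb11 (-1.30), Dnajc3 (-1.21), Dnajb9 (-1.0) and the disulfide reductase Dnajc10 (-0.99) were all lower in DC, and each DC library lay below each Si8 library. Calr, the lectin chaperone of the ER lumen, was at 757 and 939 CPM in DC and 1314 and 1349 in Si8, giving -1.22 ± 0.15 (edgeR adjusted p = 0.000962). Canx, its membrane-bound partner, went the other way in level, at 211 and 214 CPM in DC and 174 and 172 in Si8. Its log2 fold change of -0.28 did not pass the test (edgeR adjusted p = 0.0894) and became 0.30 with library totals.

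Hspa5 itself overlapped between the regions, at 1789 and 1646 CPM in DC and 1659.7 and 1638 in Si8. It was called lower at -0.52 ± 0.13 (edgeR adjusted p = 0.0183), but this rested on the TMM factors: with library totals it was 0.059, and the call was lost without DC replicate 2 or either Si8 replicate. Hsp90b1, the ER member of the Hsp90 family, was higher in level in both DC libraries, at 880.0 and 939 CPM in DC and 798 and 729 in Si8, with -0.32 by TMM, 0.25 with library totals and no call. The nucleotide exchange factor Hyou1 (-0.84) and Manf, a secreted ER-stress protein that binds BiP (-0.90), were lower with TMM scaling, and with library totals stood at -0.26 and -0.32 without a call.

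Among the isomerases and oxidases 11 of 13 were lower in DC and none was higher, with a median of -0.97. Txndc5, a thioredoxin-domain disulfide isomerase (ENSMUSG00000038991, chr13:38500079-38528824, - strand), was at 420.2 and 508 CPM in DC and 1016 and 1095 in Si8, the steepest fall of the arm at -1.76 ± 0.15 (edgeR adjusted p = 0.000189), or 3.38-fold lower. An opposite-strand exon of Bmp6 overlaps it, and the counting strand is not stated. Fkbp11, a prolyl isomerase common in secretory cells, was at 100.4 and 174 CPM in DC and 258 and 248 in Si8, and its DC replicates differed more from each other than its Si8 replicates (-1.45 ± 0.25). Pdia6 (-1.36) and P4hb (-1.21), disulfide isomerases that exchange electrons with client proteins, followed. The cyclophilin Ppib (-1.07), the prolyl isomerase Fkbp2 (-0.97) and Ero1l, the oxidase that recharges P4hb (-1.07), were also lower in both scalings.

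Pdia3, the isomerase that works with calnexin and calreticulin (-0.89), Pdia4 (-0.88) and the sulfhydryl oxidase Qsox1 (-0.61) were lower with TMM scaling but not called with library totals. Pdia5 had higher levels in DC, at 166 and 165 CPM in DC and 153 and 138 in Si8, and its call of -0.39 turned to 0.19 with library totals. It lost the call when any library was left out. Ero1lb, another ER oxidase, lay between 1.46 and 2.83 CPM and did not pass the test (-0.67, edgeR adjusted p = 0.179). Txndc11 was at 84.1 and 83.9 CPM in DC and 59.0 and 61.2 in Si8, with -0.09 by TMM and a called 0.48 with library totals.

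All 8 degradation genes were called, 7 lower and 1 higher in DC, with a median of -0.93. Herpud1, a membrane protein that organises the ER ubiquitin ligase complex (ENSMUSG00000031770, chr8:94386438-94395377, + strand), was the one higher in DC. It was at 829 and 738 CPM in DC and 395 and 289 in Si8, so both DC libraries stood far above both Si8 libraries. The log2 fold change was 0.62 ± 0.17 (edgeR adjusted p = 0.0246) and 1.20 with library totals, and the TMM call was lost without DC replicate 1 (0.54), Si8 replicate 2 (0.42) or cluster 5, and with cluster 8 counted as goblet-like. The mannosidase-like proteins Edem1 (-1.06) and Edem2 (-1.21), which mark misfolded glycoproteins, and the channel-forming Derl2 (-1.12) were lower in both scalings. Derl1 (-0.80) was lower with TMM scaling but not called with library totals. Derl3 had 5 and 17 UMIs in DC and 18 and 34 in Si8, and its call (-1.88 ± 0.42) was lost without DC replicate 1 or Si8 replicate 2. The ligase pair Sel1l (-0.52) and Syvn1 (-0.66) overlapped between the regions in level. Both calls were lost with library totals, at 0.049 and -0.09, and without DC replicate 2 or Si8 replicate 1.

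Of the 11 sensors and factors 3 were lower, 1 was higher and 7 did not pass the test, with a median of -0.28. Ern1, the gene of IRE1α (ENSMUSG00000020715, chr11:106394650-106487852, - strand), was at 22.0 and 17.0 CPM in DC and 7.75 and 5.54 in Si8, from 100 to 373 UMIs per library. It was 1.97-fold higher in DC (0.98 ± 0.22, edgeR adjusted p = 0.0101), in both scalings and with each library left out, though not after thinning every cell to 2000 UMIs. Immediate early genes also took more of the UMIs in DC. Ern1 and Herpud1 kept their calls without the 25% of goblet-like cells of each library highest in these genes. Their part in the 2 differences was not tested further. Ern2, the gene of the goblet cell form IRE1β, was at 220.4 and 204 CPM in DC and 153 and 139 in Si8. Its log2 fold change was -0.04 by TMM without a call, and a called 0.54 with library totals.

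Xbp1, whose mRNA IRE1 splices, was at 498 and 406 CPM in DC and 398 and 338 in Si8 (-0.28), and Atf4 was at 512 and 474 CPM in DC and 377 and 318 in Si8 (-0.07). For both genes each DC library lay above each Si8 library in CPM, while neither was called with TMM scaling. With library totals Atf4 was called higher (0.50) and Xbp1 was not (0.30). Spliced and unspliced Xbp1 cannot be told apart in these gene counts. Atf6 (-0.33), Eif2ak3, the gene of PERK (-0.26), and Ddit3, the gene of CHOP (-0.29), did not pass the test and changed sign with library totals. Sesn2, a stress-induced regulator of growth signalling, lay between 2.11 and 4.88 CPM (0.06).

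The 3 factors lower in DC were ATF4 targets, each with its highest level in Si8 replicate 1. Asns, asparagine synthetase, was at 24.9 and 34.4 CPM in DC and 96.3 and 69.7 in Si8 (-2.05 ± 0.21, edgeR adjusted p = 0.000442). Chac1, which breaks down glutathione, was at 4.15 and 3.28 CPM in DC and 70.8 and 10.5 in Si8, so Si8 replicate 1 stood apart from Si8 replicate 2 as well as from DC. Its log2 fold change was -4.04 ± 0.85 (edgeR adjusted p = 0.00853), and -2.13 without Si8 replicate 1, still called. Trib3, a pseudokinase induced by ATF4 and CHOP, had 2 and 8 UMIs in DC and 130 and 55 in Si8 (-4.91 ± 0.73). Chac1 in Si8 replicate 1 was also the highest of the 4 libraries in absorptive-like cells, at 4.43 and 1.86 CPM in DC and 41.3 and 4.08 in Si8, and in cycling-like cells, at 0.985 and 0.982 CPM in DC and 14.2 and 2.90 in Si8.

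**Figure D2:**
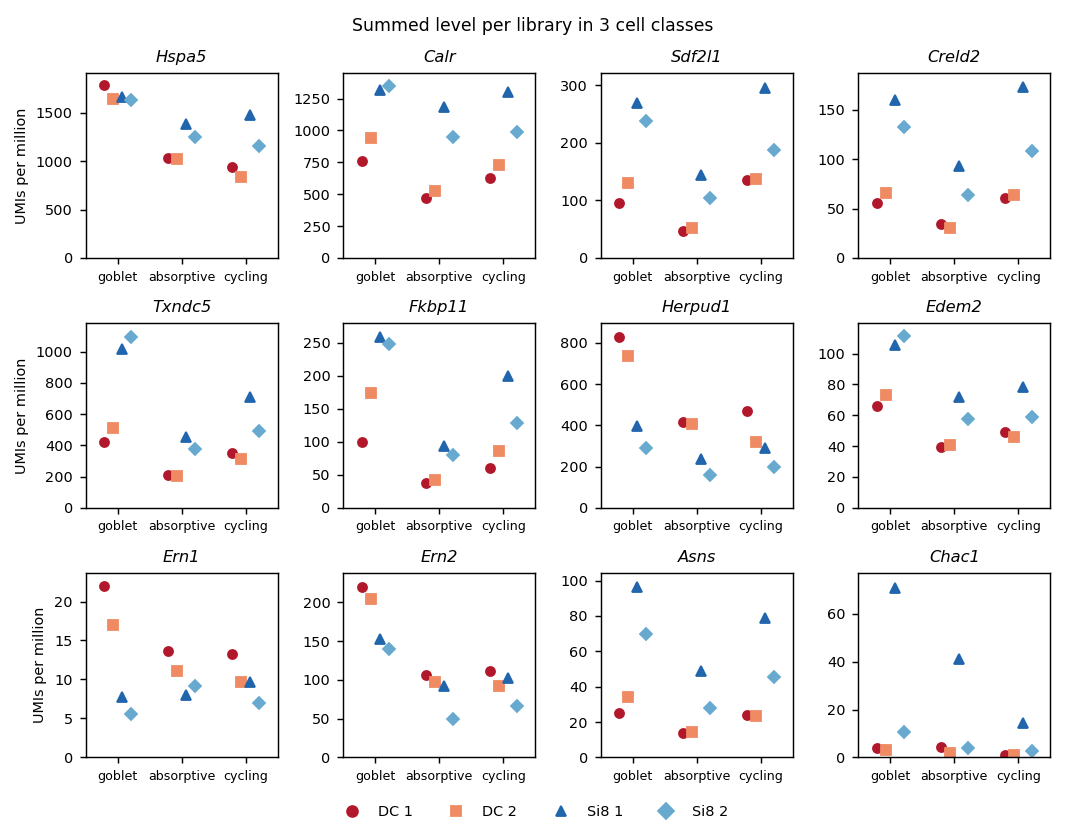
Summed level (y axis, CPM) of 12 members in goblet-like, absorptive-like and cycling-like cells, 1 point per library. Chac1 stands out for Si8 replicate 1 alone in each class, whereas Creld2, Sdf2l1 and Txndc5 are higher in both Si8 libraries.

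The regional difference was measured again in classes named by other markers. In absorptive-like cells (106 to 951 per library) 25 of the 42 members tested were lower in DC and 1 was higher, where 16.7% of all genes were lower and 16.9% higher. Trib3 and Derl3 were too scarce to test. The median was -0.77, against 0.03 for all genes, and 22 of the 25 stayed lower with library totals, where 11.7% of all genes were lower. In cycling-like cells (173 to 1043 per library) 16 of 44 were lower and none was higher, with a median of -0.49, where 11.4% of all genes were lower and 14.1% higher. At an unadjusted p under 0.05, 2 members were higher there, and DESeq2 called 1.

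Chaperones led in both classes, with 11 of 12 lower in absorptive-like and 8 of 12 in cycling-like cells. Isomerases gave 9 and 4 of 13, degradation genes 3 of 7 and 1 of 8, and the sensors and factors 2 of 10 and 3 of 11. Creld2 was at 34.1 and 30.7 CPM in DC and 93.5 and 63.6 in Si8 in absorptive-like cells (-1.49) and at 60.6 and 63.6 CPM in DC and 173 and 108 in Si8 in cycling-like cells (-1.27). Sdf2l1 (-1.53 and -0.93), Txndc5 (-1.21 and -0.98), Fkbp11 (-1.33 and -1.25) and Asns (-1.57 and -1.46) were lower in both classes too. Herpud1 was higher in DC absorptive-like cells, at 419 and 408 CPM in DC and 237 and 161 in Si8 (0.83 ± 0.21, edgeR adjusted p = 0.0103).

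Within a library, goblet-like cells held more of nearly every member than absorptive-like cells. With library as a block 38 of 44 were higher and none lower, by edgeR (also 0 by DESeq2 and 0 at an unadjusted p under 0.05), where 15.2% of all genes were higher and 13.6% lower. The median was 0.95, and 28 members were called higher with library totals, where 7.82% of all genes were. By arm the counts were 11 of 12 chaperones, 11 of 13 isomerases, 7 of 8 degradation genes and 9 of 11 sensors and factors. Muc2 itself was at 2581 and 2395 CPM in DC and 6829 and 4609.6 in Si8 in absorptive-like cells, against 5540.3 and 6276 in DC and 13758 and 12946 in Si8 in goblet-like cells. How much of the members' RNA in absorptive-like cells was free RNA was not tested.

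Fkbp11 (1.98 ± 0.13) and Pdia5 (1.87 ± 0.19) rose most in goblet-like cells, 3.96-fold and 3.66-fold. Qsox1 (1.63), Txndc5 (1.58), Dnajc10 (1.56), Asns (1.45), Sdf2l1 (1.45) and Ern2 (1.42) followed. Ern2 was at 107 and 97.2 CPM in DC and 91.5 and 49.7 in Si8 in absorptive-like cells, below its goblet-like level in every library. Ern1 (0.48), Canx (-0.20), Derl1 (0.36), Ero1l (0.25), Ero1lb (0.61) and Sesn2 (-0.36) did not pass the test, and Ero1l changed sign with library totals.

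The class difference itself differed by region for 11 members, 3 of them more positive in DC and 8 less, where 8.45% of all genes were more positive and 13.3% less. Canx gave the most significant interaction. It was at 189.6 and 198 CPM in DC and 409.8 and 379.7 in Si8 in absorptive-like cells, higher in Si8, and its CPM turned around in goblet-like cells as given above. With TMM scaling Canx was lower in DC in both classes, without a call in goblet-like cells. The interaction was 0.97 ± 0.12 (edgeR adjusted p = 2.6e-05), and Canx alone kept its call in every alternative. Dnajb9 went the other way, at 22.5 and 26.3 CPM in DC and 29.8 and 18.7 in Si8 in absorptive-like cells, an interaction of -0.93 ± 0.18 (edgeR adjusted p = 0.00141). With library totals 8 members were more positive and 1 less, where 24.0% and 5.81% of all genes were, and DESeq2 called 1 of each. The share of members called more positive was thus below that of all genes in both scalings.

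Goblet-like cells of each library were then ranked by the share of their UMIs from Muc2, the main secreted mucin, and the top 25% were compared with the bottom 25%. The median of that share over cells was 0.205% and 0.263% in the bottom 25% of the DC libraries and 1.15% and 1.10% in the top. In Si8 the median was 0.741% and 0.742% in the bottom and 2.67% and 1.93% in the top. In CPM, Muc2 load and the members ran in different ways in the regions. Summed chaperones of the top cells stood at 107 and 113% in DC and 34.3 and 51.4% in Si8 of their level in the bottom cells. Isomerases stood at 77.0 and 94.1% in DC and 40.9 and 57.4% in Si8, degradation genes at 98.5 and 106% in DC and 53.8 and 57.3% in Si8, and sensors and factors at 103 and 105% in DC and 63.3 and 74.0% in Si8. In Si8 all 4 arms were thus lower in CPM in the most Muc2-rich cells of both libraries. In DC the chaperones and the sensors and factors were higher and the isomerases lower in both, which not every alternative below kept. These levels are not scaled by TMM, whose factors fell from bottom to top, from 0.971 to 0.671 and 0.985 to 0.722 in Si8. In DC they fell from 1.29 to 1.12 and from 1.25 to 1.20. The sensors and factors of Si8 replicate 2 fell no more than its factor.

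Hspa5 showed the split in single genes. In the bottom 25% it was at 1548 and 1363 CPM in DC and 2207 and 2169 in Si8, and in the top 25% at 1889 and 1868 CPM in DC and 779.6 and 1138 in Si8. In CPM its order between regions thus turned around from the bottom to the top. Scaled by the TMM factors above, the regions overlapped for Hspa5 in the top 25%. Calr was at 766 and 961 CPM in DC and 1804 and 1862 in Si8 in the bottom and 814 and 958 CPM in DC and 703 and 937 in Si8 in the top 25%. Creld2 went from 49.1 and 70.7 CPM in DC and 253 and 201 in Si8 to 62.2 and 69.4 CPM in DC and 52.0 and 85.2 in Si8, so that in CPM the regions no longer separated among the Muc2-richest cells. Scaled by the same factors, both Si8 libraries stayed above both DC libraries there. Ern2 went from 188 and 180.0 CPM in DC and 168 and 160.1 in Si8 to 268 and 222 CPM in DC and 142 and 128 in Si8. It was up in both DC libraries and, in CPM, down in both Si8 libraries, where it fell by less than the TMM factors.

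**Figure D3:**
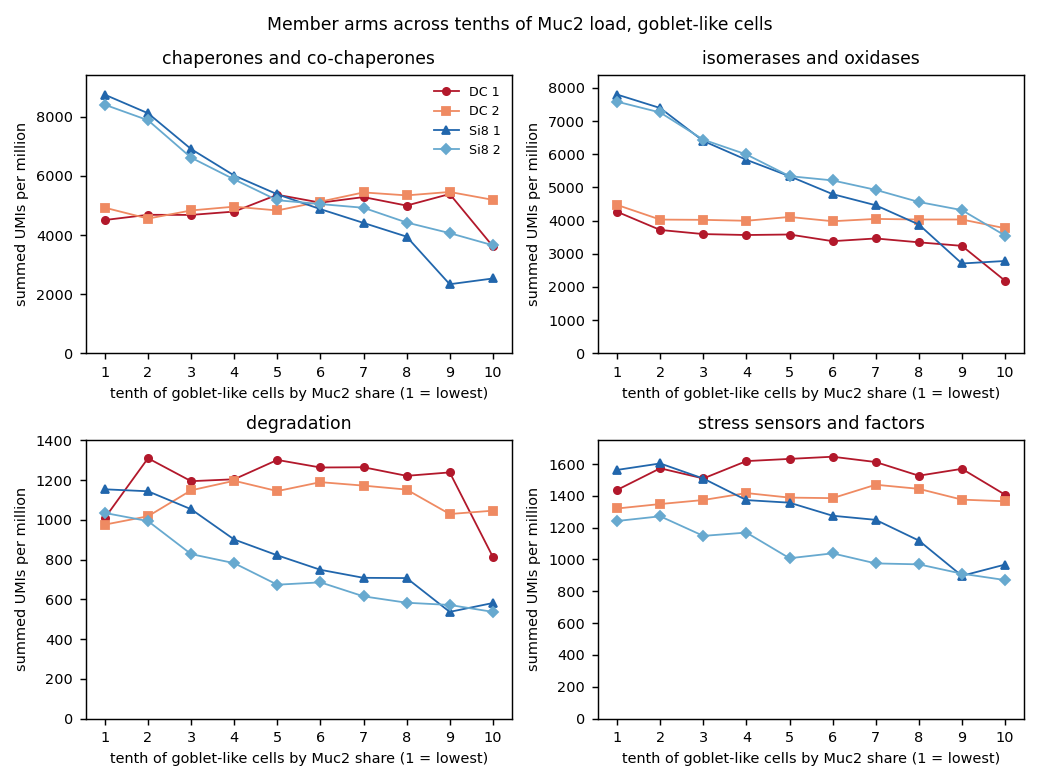
Summed level of each arm (y axis, CPM) over 10 equal bins of goblet-like cells ranked by Muc2 share of UMIs (x axis, 1 is lowest), 1 line per library. The chaperones go from 8751 to 2531 in Si8 replicate 1 and from 8412 to 3655 in Si8 replicate 2, and from 4510 to 3622 in DC replicate 1 and from 4926 to 5193 in DC replicate 2.

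Over both regions together, the test of the top against the bottom 25% with library as a block called 3 of 43 members, 1 higher and 2 lower, where 12.6% of all genes were higher and 9.34% lower. Eif2ak3 was higher, going from 47.8 and 36.7 CPM in DC and 32.8 and 25.9 in Si8 to 74.2 and 51.5 CPM in DC and 59.8 and 51.7 in Si8 (1.07 ± 0.20, edgeR adjusted p = 0.00775), a rise in each of the 4 libraries. Pdia5 was lower, going from 224 and 208 CPM in DC and 270.0 and 258 in Si8 to 75.3 and 135 CPM in DC and 26.0 and 51.1 in Si8 (-1.60 ± 0.31, edgeR adjusted p = 0.00957), a fall in each of the 4. Sdf2l1 also fell in each (-0.97 ± 0.30, edgeR adjusted p = 0.0455). None of the 3 kept its call in every alternative, and without Si8 replicate 2 no member was called.

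The difference between regions in this relation did not reach a call by edgeR, with 0 of 43 members, where 0.238% of all genes were called higher and 0.181% lower. At an unadjusted p under 0.05, 16 members were higher and 1 lower, where 11.7% of all genes passed in either direction, and DESeq2 called 1 member. The members' median interaction was 0.58, against 0.08 for all genes, and 1.00 for the chaperones. Depth and cell state moved with the ranking. Median UMIs per cell fell from 20200 to 6323.5 from the bottom to the top 25% in Si8 replicate 1, from 19994.5 to 15715.5 in Si8 replicate 2, from 13728.5 to 7812.5 in DC replicate 1 and from 12020 to 9036 in DC replicate 2. Cluster 9, described next, made up 81.4% and 32.2% of the top 25% in Si8 and 44.9% and 15.8% in DC.

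Under 2 of the alternatives, ranking cells within bins of equal depth and leaving out cluster 9 after seeing these values, 17 members each had a more positive change in DC, where 4.87% and 2.57% of all genes did. The chaperone ratios then came to 119 and 118% in DC and 52.9 and 56.8% in Si8 within depth bins and 116 and 116% in DC and 56.4 and 56.6% in Si8 without cluster 9. Ranking within clusters left 92.1 and 105% in DC and 69.2 and 68.8% in Si8, with 9 members called, where 0.623% of all genes were called in that direction. After thinning to 2000 UMIs the chaperones stood at 99.0 and 112% in DC and 37.9 and 57.0% in Si8. With thinning no member was called for the difference between regions, where 0.0917% of all genes were called more positive. DC isomerases stood at 89.7 and 100% within depth bins and at 96.8 and 106% within clusters. The DC sensors and factors stood at 91.2 and 98.3% within clusters. Across single cells the members' median Spearman correlation with Muc2 share was -0.0567 and -0.0181 in DC and -0.191 and -0.115 in Si8, against -0.0426 and -0.0206 in DC and -0.0695 and -0.0538 in Si8 over all genes with UMIs in 10% of cells. For these correlations and the 10% limit every cell was first thinned to 2000 UMIs, so they describe sparse counts at equal depth.

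Goblet-like cells fell into 7 clusters large enough to test, each set against the other goblet-like cells of its library. The members took no part in the clustering, but genes that vary with them did, so the counts describe the clusters. Cluster 3, led by Zg16, Spink1 and Clca1, had 14 members higher and 2 lower, where 9.51% of all genes were higher and 7.89% lower. Cluster 6, led by Reg4, Retnlb and Ccl9, had 5 higher and 10 lower, where 12.4% were higher and 14.8% lower. Cluster 14, led by Id2, Gde1 and Agr2, had 14 higher and none lower (2 lower at an unadjusted p under 0.05), where 1.78% were higher and 3.99% lower. Cluster 9, a shallow cluster (median 5628.5 UMIs) led by Saa1, Ido1 and Sprr1a, had 3 higher and 14 lower, where 15.4% were higher and 20.5% lower. The cluster counts and fold changes are with TMM scaling, and their alternatives are not given here by gene. With library totals 4.78% of all genes were higher and 15.8% lower in cluster 3, and 19.9% and 8.10% in cluster 6.

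The remaining clusters moved fewer members. Cluster 2, led by Sval1 and Ccl6, had 5 lower and none higher (3 at an unadjusted p under 0.05), where 6.80% of all genes were lower and 2.91% higher. Cluster 4, led by Zg16 and Sval1, had 4 lower and 1 higher, where 2.85% and 2.03% were. Cluster 5, led by Mptx1, Thbs1 and Cyr61 and mostly of DC cells (216 and 397 in DC and 44 and 63 in Si8), had 2 higher and none lower (10 at an unadjusted p under 0.05), where 1.68% were higher and 2.37% lower.

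Against the other goblet-like cells, 7 of 12 chaperones, 1 of 13 isomerases, 3 of 8 degradation genes and 3 of 11 sensors and factors were higher in cluster 3. Ddit3 (0.78 ± 0.10, edgeR adjusted p = 0.000338), Dnajb9 (0.64), Eif2ak3 (0.58), Hspa5 (0.57) and Chac1 (0.57) rose most. Hsp90b1 (0.31), Calr (0.27), Dnajb11 (0.34), Dnajc3 (0.33), Manf (0.29), P4hb (0.24), Sel1l (0.43), Edem1 (0.41) and Derl2 (0.28) also rose. Hspa5 was at 2636 and 2668 CPM in DC and 1835 and 1623 in Si8 there. In Si8 replicate 2 this CPM was not above the level of all goblet-like cells given earlier. Pdia5 (-0.85) and Fkbp11 (-0.42) fell.

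Clusters 6 and 3 are part of each other's reference cells, so their values are set side by side without a test between them. In cluster 6 Pdia5 (0.93 ± 0.12), Fkbp11 (0.80 ± 0.10), Sdf2l1 (0.40), Creld2 (0.36) and Pdia6 (0.33) were higher, while 6 of 11 sensors and factors were lower. Ddit3 was at 75.0 and 98.6 CPM in DC and 101 and 58.3 in Si8 in cluster 6 and at 301 and 291 CPM in DC and 207 and 141 in Si8 in cluster 3, so cluster 3 was the higher of the pair in every library. Its log2 fold change in cluster 6 was -1.31 ± 0.12 (edgeR adjusted p = 4.96e-05). Chac1 (-2.32), Trib3 (-1.89), Eif2ak3 (-1.14), Atf6 (-0.45) and Atf4 (-0.31) were lower too, as were Hspa5 (-0.51), Dnajb9 (-0.37), Sel1l (-0.65) and Edem1 (-0.39). Cluster 6 made up 36.0% to 45.1% of the bottom 25% by Muc2 share in 3 libraries and 28.5% in Si8 replicate 2, and at most 15.05% of the top 25% of any.

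**Figure D4:**
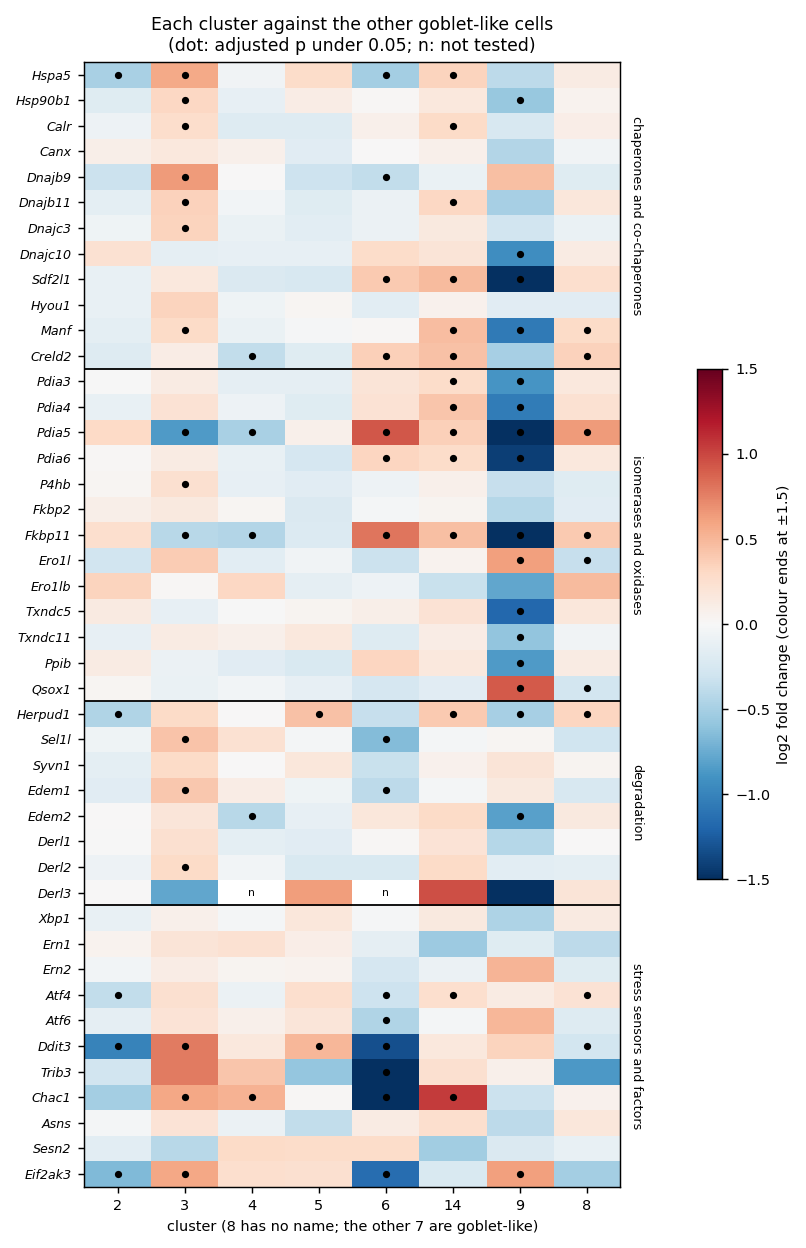
Log2 fold change (colour, ending at ±1.5) of each member in each of 7 goblet-like clusters and in unnamed cluster 8, against the other goblet-like cells of the same libraries; a dot marks an adjusted p under 0.05 and n a member not tested. Ddit3 stands at 0.78 in cluster 3 and -1.31 in cluster 6, and Pdia5 at -0.85 and 0.93.

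Cluster 9 was low in isomerases, with 8 of 13 lower and 2 higher. Pdia5 (-2.94 ± 0.28) and Fkbp11 (-2.79 ± 0.27) fell most, with Fkbp11 at 5.62 and 44.4 CPM in DC and 22.2 and 32.3 in Si8. Sdf2l1 (-1.65), Pdia6 (-1.42), Txndc5 (-1.18), Manf (-1.06) and Pdia4 (-1.05) were lower, and Qsox1 (0.92), Ero1l (0.62) and Eif2ak3 (0.62) higher. Of its 588 cells 282 came from Si8 replicate 1. In cluster 14 the 14 higher members included Chac1 (1.05 ± 0.15), Sdf2l1 (0.48), Manf (0.46), Fkbp11 (0.45), Creld2 (0.44) and Herpud1 (0.39). Ddit3 fell in cluster 2 (-1.0 ± 0.08, edgeR adjusted p = 4.99e-07) and rose in cluster 5 (0.50), where Herpud1 also rose (0.44).

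Cluster 8 was left without a name because it held 2 goblet markers among its 50 leading genes, fewer than the 3 required. Pdia5, Fkbp11 and Herpud1 were among its first 10 leading genes, beside Dll1, a Notch ligand of early secretory cells, and Hpd. It held 155 and 188 cells in DC and 155 and 125 in Si8. Against goblet-like cells 6 members were higher and 3 lower, where 7.36% of all genes were higher and 10.6% lower. Pdia5 (0.64 ± 0.10), Fkbp11 (0.39), Creld2 (0.35), Herpud1 (0.32), Manf (0.29) and Atf4 (0.22) were higher, and Ero1l (-0.35), Ddit3 (-0.28) and Qsox1 (-0.27) lower. With library totals 17 were higher and none lower (DESeq2 called 1 lower), where 17.4% of all genes were higher and 5.03% lower.

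The cells of cluster 8 differed from goblet-like cells in a way that depended on region for 8 members, 7 with a more negative difference in DC than in Si8 and 1 with a more positive one, where 0.745% of all genes were called in the first direction and 2.00% in the second. Its chaperones summed to 4896 and 5043 CPM in DC and 9198 and 9225 in Si8, against 4890.0 and 5048 CPM in DC and 5906 and 5701 in Si8 in goblet-like cells. In Si8 both libraries therefore stood above their goblet-like cells, whereas in DC the sums were nearly equal. Hspa5 was at 1781 and 1497 CPM in DC and 2799 and 2749 in Si8 (-0.55 ± 0.09, edgeR adjusted p = 0.00383). Hyou1 (-0.71), Hsp90b1 (-0.54), Pdia4 (-0.54), Fkbp11 (-0.52), Pdia5 (-0.47) and Herpud1 (-0.43) had the same sign. Eif2ak3 was at 62.4 and 48.4 CPM in DC and 32.0 and 18.4 in Si8, an interaction of 1.08 ± 0.20 (edgeR adjusted p = 0.0062). DESeq2 called none of the 7, and without DC replicate 2 no member was called in either direction.

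**Figure D5:**
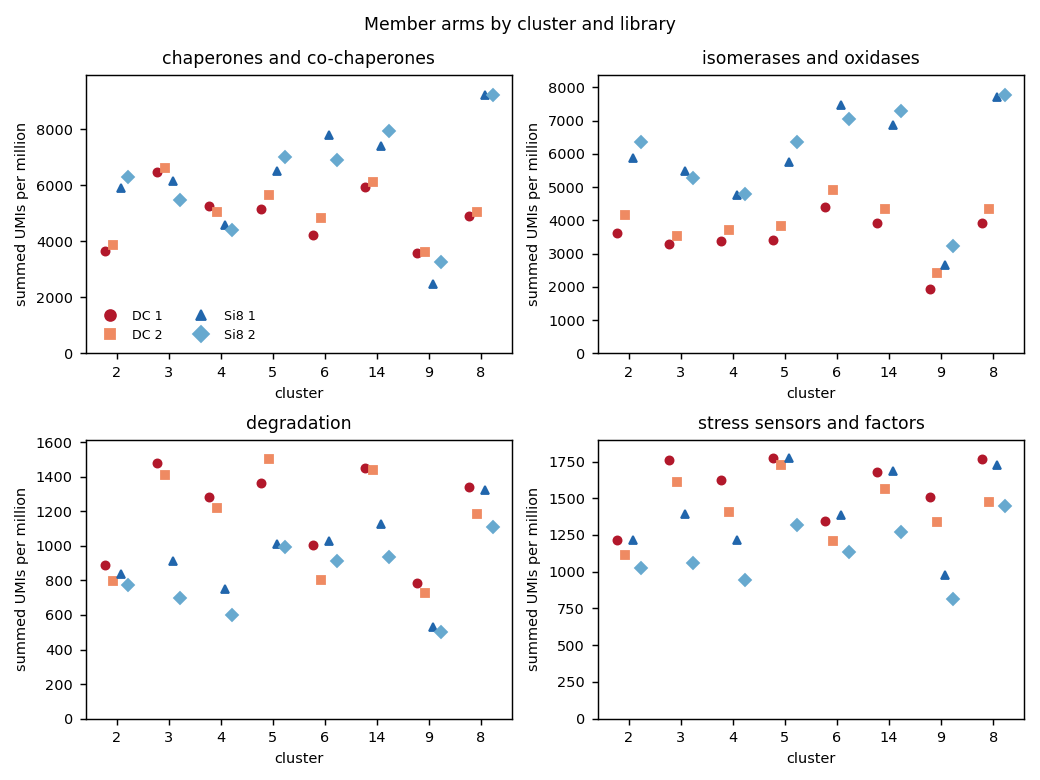
Summed level of each arm (y axis, CPM) in 7 goblet-like clusters and in unnamed cluster 8 (x axis), 1 point per library. In cluster 8 the Si8 libraries reach 9198 and 9225 for the chaperones, above every goblet-like cluster, and the DC libraries 4896 and 5043.

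Other genes of the pathway, from lists chosen by function, were read against the same shares of all genes in goblet-like cells by region, 22.0% lower and 21.3% higher. Of 30 other ER folding and glycan processing genes 14 were lower in DC and 2 higher, with a median of -0.38. Rcn1, a calcium-binding protein of the ER (-3.26), and the cyclophilin Ppic (-3.09) fell most, and the thioredoxin-related Tmx4 (4.69) and Fkbp7 (0.95) were higher. Other degradation genes were lower for 14 of 21 and higher for none (-0.57 median), led by Edem3 (-1.5) and Vimp (-1.10). Of 36 ATF4 targets 18 were lower and 4 higher, with Psat1 (-3.13) and Mthfd2 (-2.36), enzymes of serine and folate metabolism, among the lowest. Cbs, which makes cystathionine (5.94), and Atf3 (0.74), also an immediate early gene, were higher. Of 20 other regulators 7 were lower and 3 higher, with Creb3l2 (-1.71) and Bak1 (-1.60) at the low end and Nfe2l2 (0.59) and Creb3l1 (0.51) at the high end.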

How the data were processed

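The authors deposited unnormalised UMI counts for each gene and barcode, made with Cell Ranger 2.1.1 and mm10, per the submitters' processing notes, from 10x 3' libraries, per the labels. With no annotation version stated, coordinates come from GENCODE M21 (GRCm38) through the Ensembl identifiers. The members, lists and tests were chosen with earlier results of these data known.

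Of 10827 barcodes, 10522 passed a minimum of 500 genes and a maximum of 20% mitochondrial UMIs. Scrublet (scanpy 1.11.5) called only 26 doublets, so the highest scores were removed at 0.8% per 1000 cells, 279 cells in all. The 2000 most variable genes, without any listed gene, gave 30 principal components, which were joined over 5 neighbours per library and clustered with Leiden at a resolution of 2. That resolution was raised after a defensin-led cluster at 1 and 1.5 was seen to hold colon cells. Those under 200 cells were split once more. A name ending in "-like" needed 3 markers among 50 leading genes. No cluster was stem-like, so the planned stem-like and cycling-like sum holds cycling-like cells.

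UMIs were summed per class and library (10614114 and 21935318 UMIs for goblet-like cells in DC) and tested with edgeR 4.0.16 (quasi-likelihood, TMM scaling, minimum count of 10, Benjamini-Hochberg threshold of 0.05), with library as a block within libraries. DESeq2 1.42.0 was an alternative. The tests were checked on simulated data. All 44 members are named. Of the other pathway lists, up to 2 called genes at each end were named if above 5 CPM. Libraries of a region were kept as replicates, and differed by more than sampling noise in 32.8% (DC) and 33.0% (Si8) of genes. That spread does not show that they came from separate animals. Exons of other genes overlap Manf on the same strand, and Hsp90b1, Manf, Pdia3, Pdia6, Txndc5, Txndc11, Ppib, Syvn1, Derl2 and Ddit3 on the opposite strand. Protein sequences were not used here.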

Additional observations from a re-analysis of the deposited data

Results flagged for a closer look

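For 11 members the difference between goblet-like and absorptive-like cells differed between DC and Si8 by edgeR's interaction test, 3 of 44 more positive and 8 less, where 8.45% and 13.3% of all genes were. DESeq2 called 1 of each, and Canx alone kept its call in every alternative. On the log2 scale, DC minus Si8, it was 0.97 for Canx, 0.79 for Ern1 and 0.41 for Hsp90b1. It was -0.93 for Dnajb9, -0.67 for Pdia5, -0.64 for Eif2ak3, -0.56 for Txndc5, -0.54 for Ppib, -0.53 for Dnajb11, -0.52 for Ddit3 and -0.48 for Derl1. The adjusted p ran from 2.6e-05 for Canx to 0.048 for Eif2ak3. In Canx the DC minus Si8 difference was -0.28 in goblet-like and -1.25 in absorptive-like cells.

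For 8 members the difference between cluster 8 and goblet-like cells differed between the regions by the same test, 1 more positive and 7 less, where 2.00% and 0.745% of all genes were. DESeq2 called none of the 7, and without DC replicate 2 no member was called. It was 1.08 for Eif2ak3, -0.71 for Hyou1, -0.55 for Hspa5, -0.54 for Hsp90b1, -0.54 for Pdia4, -0.52 for Fkbp11, -0.47 for Pdia5 and -0.43 for Herpud1. The adjusted p ran from 0.00383 for Hspa5 to 0.0336 for Pdia4. No cause was tested for either set.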

How the results depend on the processing

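In goblet-like cells the members called lower in DC numbered 27 to 30 with 1 library left out, against 31, and those called higher 1 to 2. Higher calls were 5 with library totals, and 1 each after thinning to 2000 UMIs, without cluster 5, or with cluster 8 counted as goblet-like. Signs reversed with library totals for called or then called members: Hspa5 0.059, Pdia5 0.19, Txndc11 0.48, Sel1l 0.049, Ern2 0.54 and Atf4 0.50. In absorptive-like cells higher calls (1) became 2 with library totals, 2 with the replicate block and 0 after thinning (1 to 4 with a library left out), and lower calls (25) became 13 after thinning (16 to 29). In cycling-like cells higher calls (0) became 1 with library totals, 1 with DESeq2, 2 with no count filter, 1 with no doublet removal and 2 with the replicate block (0 to 2), and lower calls (16) became 10 after thinning (6 to 22). For goblet-like against absorptive-like cells, leaving out a library gave 31 to 35 higher calls, against 38. Their difference by region gave 8 higher calls with library totals and 1 with DESeq2, against 3 (1 to 3), and 1 lower call with library totals and 1 with DESeq2, against 8 (2 to 17).

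For Muc2 load, higher calls (1) became 2 with DESeq2, 4 within depth bins, 3 within clusters, 7 with 4 mucus genes, 3 after thinning and 4 without cluster 9 (0 to 8). Lower calls (2) became 4 with library totals, 6 with DESeq2, 5 with no count filter, 1 within depth bins, 4 with cells cut in 3, 11 within clusters, 4 with 4 mucus genes, 4 after thinning and 7 without cluster 9 (0 to 5). Muc2 load by region, with 0 higher calls, gave 1 with library totals, 1 with DESeq2, 3 with no count filter, 17 within depth bins, 1 with cells cut in 3, 9 within clusters, 11 with 4 mucus genes and 17 without cluster 9 (0 to 16), and 1 lower call within depth bins. Cluster 8 against goblet-like cells gave 17 higher calls with library totals, against 6 (1 to 6), and 0 lower with library totals, 1 with DESeq2 and 7 with no count filter, against 3 (0 to 3). Its difference by region gave 20 lower calls with library totals and 0 with DESeq2, against 7 (0 to 9), and 0 to 1 higher. The causes were not tested.

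With the replicate block, 34 members were lower and 2 higher in DC goblet-like cells. The replicate numbers mark no stated pairing. DC 1 and Si8 1 deviated together over 11643 genes (0.239), as a hint from the data. The analyses that leave out cluster 9, count cluster 8 as goblet-like or rank Muc2 load by region in other ways were chosen after seeing the data. With 2 libraries a region, a fit that leaves 1 out takes its spread from the other region.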

Other observations

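The wider pathway gave values beyond the regional comparison in goblet-like cells. Goblet-like cells exceeded absorptive-like cells of their library for 16 of 29 other ER folding genes, with 1 lower, where 15.2% of all genes were higher and 13.6% lower. Agr2, a disulfide isomerase needed to make mucin, was at 13027 and 17034 CPM in DC and 26882 and 29839 in Si8 goblet-like cells (2.03 over absorptive-like cells). Creb3l4, a membrane-bound factor related to ATF6, stood 1.98 higher, while Nfe2l2 was -0.60. Cbs was at 24.9 and 26.2 CPM in DC absorptive-like cells and had no UMI in either Si8 library. Nupr1, a stress-induced chromatin protein, was 2.61 in DC against Si8 absorptive-like cells.

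In the 25% of goblet-like cells richest in Muc2, genes called higher included Edem3 (1.02), Creb3l2 (0.90) and Ppp1r15b (0.90), and Rcn1 (-1.88) was among those lower. Of all genes 12.6% were higher and 9.34% lower. Rcn1 was at 0.545 and 2.15 CPM in DC and 2.21 and 6.56 in Si8 in these cells, so its value rests on few UMIs. Libraries of 2 per region limit every comparison, and cells were grouped from RNA alone.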
